A study of Mus musculus with 16 samples.

Results

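The histone cluster genes are the genes for the core histones H2A, H2B, H3 and H4 and for the linker histone H1 that lie side by side in clusters of the mouse genome. They were taken as every gene whose symbol begins with Hist1h, Hist2h, Hist3h or Hist4h, by name alone and with no use of their levels, which gave 70 members among the 47729 genes with values. The members were 6 H1, 20 H2A, 19 H2B, 12 H3 and 13 H4 genes. By prefix, 56 members were named Hist1, 10 Hist2, 3 Hist3 and 1 Hist4. On genome build GRCm38, 53 of the Hist1 members lay within chr13:21715763-23934851, the 10 Hist2 members within chr3:96219865-96270132, the 3 Hist3 members within chr11:58948920-58956830 and Hist4h4 at chr6:136801553-136804415.

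Histone cluster genes are switched on when a cell copies its DNA, and their proteins wrap the new strand into nucleosomes. Most of their messages do not end in a poly(A) tail but in a short stem-loop that is bound by SLBP, the stem-loop binding protein, although many cluster genes also give some polyadenylated transcripts. The libraries studied here were made with a kit that primes on poly(A), so a level reported below is that of the transcripts caught by such priming, and not the level of all histone messages of a cell.

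The tissue was the mouse cochlea at postnatal day (P) 4, dissected free of Reissner's membrane, the lateral wall and the spiral ganglia. Control animals were GLAST CreERT/+; Rpl22 HA/+ and damaged animals, called DTR, were Lgr5 DTR/+; GLAST CreERT/+; Rpl22 HA/+. The Lgr5 DTR allele is a knock-in that puts the receptor for diphtheria toxin into Lgr5+ supporting cells, and per the methods of the study both genotypes received the toxin and tamoxifen at P1, whereas the GEO label of the control samples reads "No treatment". The question of the comparison was how cochlear cells respond to the loss of Lgr5+ cells. Of each homogenate, 5% was kept as input, which is RNA of all cell types, and the other 95% went into an immunoprecipitation (IP) of HA-tagged ribosomes. Tagged ribosomes are made where the GLAST promoter drove CreERT, so the IP is meant to enrich ribosome-bound RNA of GLAST-Cre+ cells. RNA of other cells can remain in it. Each genotype had 4 replicates, each a pool of cochleae that gave an input and an IP library, which makes 16 libraries in 4 groups.

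The libraries held between 28089836 and 41966310 reads assigned to genes. Values are CPM, the reads of a gene scaled to a common library total, and 3 reads correspond to 0.0715 to 0.107 CPM depending on the library. A gene was tested if every replicate of some group held 0.5 CPM or more, and 16994 genes did. Fold changes were fitted with limma on log2(quantile-normalized CPM + 0.5), so they understate the change of weakly expressed genes, and a gene was called when it changed by over 1.5-fold at a Benjamini-Hochberg adjusted p under 0.05 with no overlap between the replicates of the 2 groups. Lgr5 itself fell from 63.3 ± 3.03 to 15.9 ± 3.69 CPM in input and from 36.6 ± 3.99 to 9.38 ± 1.40 CPM in IP (SD, n = 4 each), and since DTR animals also carry a knock-in at 1 Lgr5 allele, loss of cells and loss of that allele's message cannot be told apart in this value. In bulk samples such as these, fewer cells of a type and less RNA per cell cannot be told apart either, and the same holds for more cells and more RNA per cell.

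The stem-loop was the sequence feature that the members shared. It has 6 base pairs in the stem and 4 bases in the loop, and it was found in the annotated transcript of 44 of 65 protein-coding members with an entry in the GENCODE M21 annotation (67.7%), against 273 of 55450 genes with a transcript (0.492%). The most frequent form, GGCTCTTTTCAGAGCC, was held by 24 members of the H1, H2A, H2B and H3 families. The 7 members with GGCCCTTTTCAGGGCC were H4 genes without exception, and no H4 gene held any of the forms found in the other families. What followed the stem-loop varied far more than the stem-loop itself. In 22 members the annotated transcript went on for 100 bases or more after it, and in 22 it stopped before that. The windows below show the stem-loop in capitals with the 7 bases on either side, in mature message sense, for members with a short and with a long annotated end that recur in the results. They lie at chr13:23752813-23752842 on the plus strand for Hist1h3b, chr13:23531451-23531480 plus for Hist1h4h, chr13:23683470-23683499 minus for Hist1h2ac, chr13:23576237-23576266 plus for Hist1h3d, chr3:96262932-96262961 minus for Hist2h4 and chr11:58955165-58955194 plus for Hist3h2a (GRCm38).
Hist1h3b: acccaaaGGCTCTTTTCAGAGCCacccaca
Hist1h4h: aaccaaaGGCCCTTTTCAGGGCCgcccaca
Hist1h2ac: acccaaaGGCTCTTTTCAGAGCCcccactt
Hist1h3d: ccccaaaGGCTCTTTTCAGAGCCacccccg
Hist2h4: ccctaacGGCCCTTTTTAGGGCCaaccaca
Hist3h2a: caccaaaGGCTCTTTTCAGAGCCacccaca
After these windows the annotated transcript ran on for 51 bases from the stem-loop in Hist1h3b and 46 in Hist1h4h, neither of which held an AATAAA, the usual signal for polyadenylation. It ran on for 752 bases with no AATAAA in Hist1h3d, 1257 bases with 2 in Hist2h4, 1643 bases with 1 in Hist3h2a and 2010 bases with 3 in Hist1h2ac.

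Of the 70 members, 63 had a read in some library and 7 were at 0 in all 16. Of these 7 genes, 5 (Hist2h2aa1, Hist2h2aa2, Hist2h2bb, Hist2h3b and Hist2h3c1) share every 75-base window of their transcript with another gene, so a counter that drops ambiguous reads would give 0 whatever their expression. No member with a read was of that kind. In 32 members more than 50% of the windows were shared, and values of such members are uncertain because reads could be dropped or placed on a copy. Likewise 26 members overlap another annotated gene, and whether the counting used strand is not given in the sources used here. The heat map shows the 63 members with a read.

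**Figure D1:**
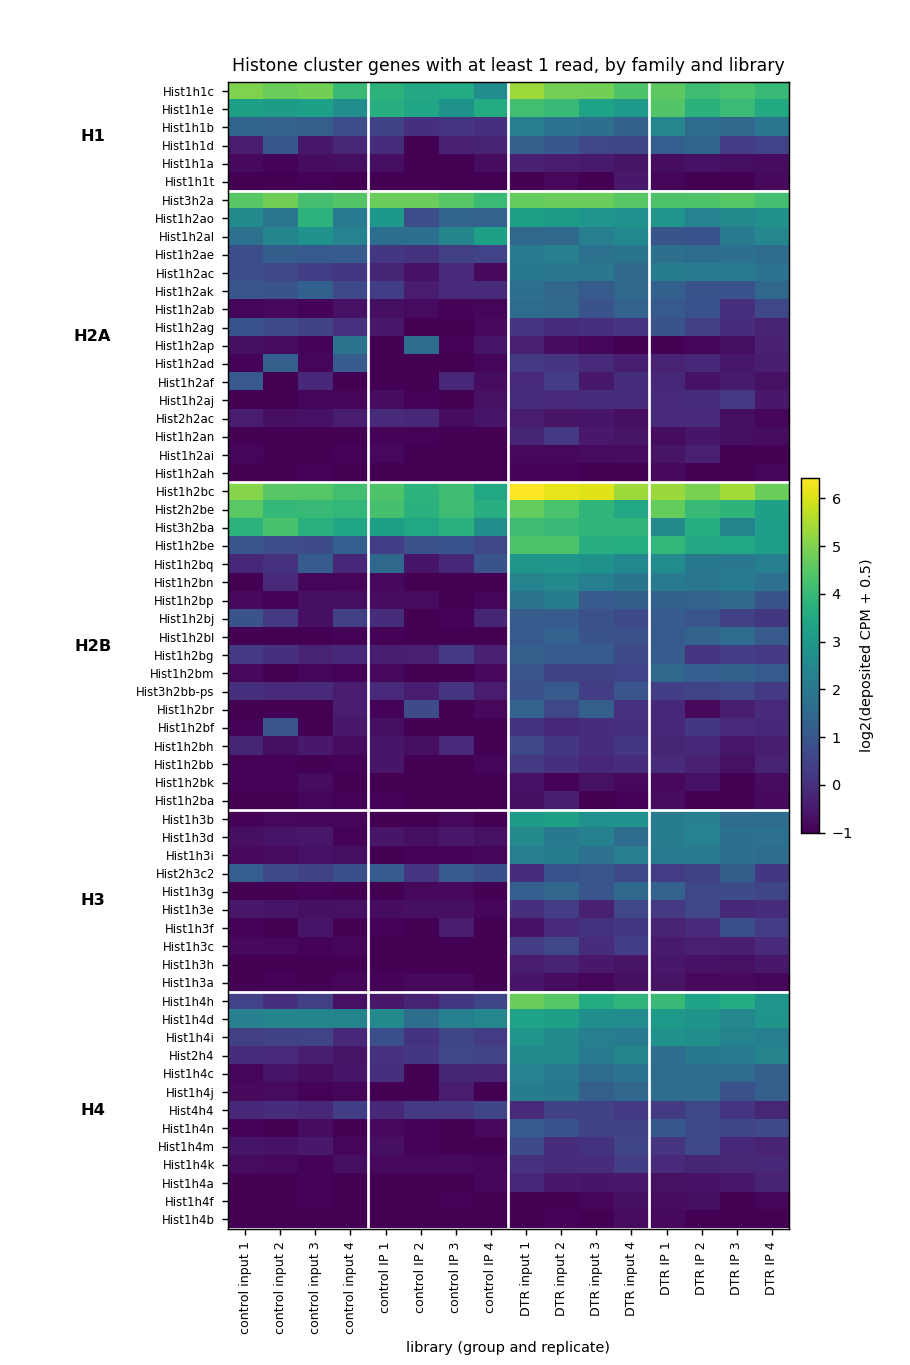
Heat map of the 63 histone cluster genes with at least 1 read, in rows grouped by family and ordered by mean level, against the 16 libraries in columns grouped by genotype and fraction; colour gives log2(CPM + 0.5). Most H3 and H4 rows are dark in the 8 control libraries and lighter in the 8 DTR libraries, while Hist3h2a and Hist2h2be are light throughout.

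In control cochleae few members carried most of the signal. The summed level of all members was 145 ± 20.4 CPM in control input and 108 ± 16.8 CPM in control IP (SD, n = 4 each). In control input 75.9% of this sum came from Hist1h1c, Hist1h2bc, Hist3h2a, Hist2h2be, Hist3h2ba and Hist1h1e, while H3 members contributed 1.24% and H4 members 5.00%. Levels of different genes are comparable only per length. In CPM per kb of annotated exon, the order in control input was Hist3h2ba at 22.4 ± 6.43, Hist1h2bc at 20.6 ± 5.88, Hist1h1c at 16.3 ± 4.30, Hist1h2al at 13.7 ± 4.28, Hist1h2ao at 13.4 ± 9.91, Hist3h2a at 10.4 ± 1.81 and Hist2h2be at 6.53 ± 1.44 (SD, n = 4). Except for Hist3h2a and Hist2h2be, neighbours in this order differed by less than the larger of their SDs. Only 12 members reached 0.5 CPM in every control library, against 33 in every DTR library.

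In DTR cochleae the summed level was 299 ± 64.1 CPM in input and 213 ± 31.8 CPM in IP (SD, n = 4 each). That is 2.06 times the control mean in input and 1.98 times in IP, and in neither did DTR and control libraries overlap. The families did not share in this equally. The H3 sum went from 1.80 ± 0.359 to 20.1 ± 2.10 CPM in input and from 1.74 ± 0.662 to 14.2 ± 2.19 CPM in IP, ratios of 11.2 and 8.13. The H4 sum went from 7.25 ± 0.547 to 45.5 ± 13.2 CPM in input and from 7.70 ± 1.79 to 33.8 ± 5.53 CPM in IP, ratios of 6.28 and 4.40. For H2B the ratios were 2.32 in input and 1.97 in IP, with no overlap in either. For H2A they were 1.21 in input, without overlap, and 1.20 in IP, with overlap. For H1 they were 1.30 in input, with overlap, and 1.84 in IP, without. The H3 and H4 members together thus grew from a small part of the sum to 6.73% and 15.2% of it in DTR input. No test was run on these sums, since the members were chosen as a set.

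**Figure D2:**
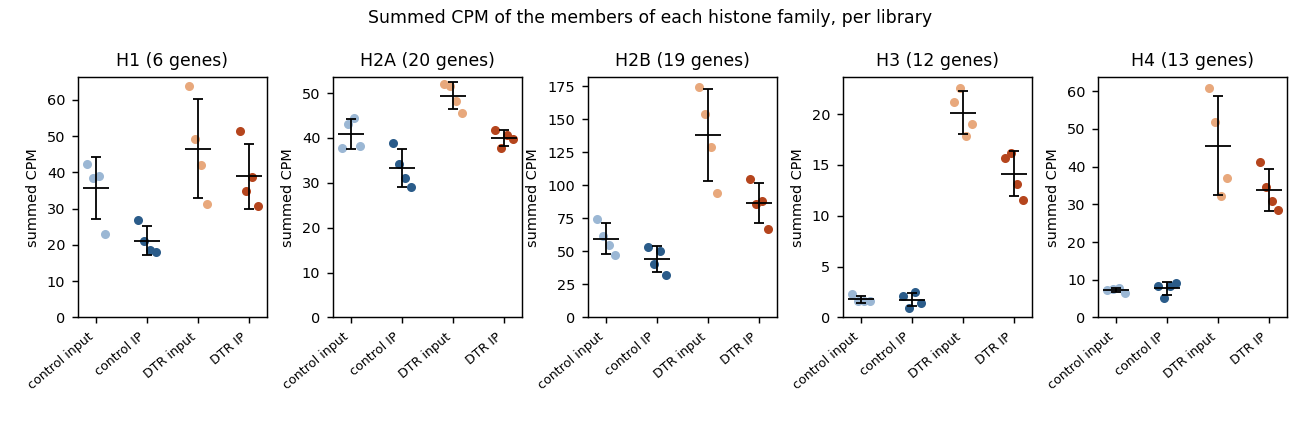
Summed CPM of the members of each histone family (1 panel a family, y axes from 0), with 1 point per library, a black line for the mean and bars for the SD of 4 libraries. The H3 and H4 panels show the DTR libraries far above all control libraries, and the H2A panel shows DTR and control levels close together.

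Of the 37 members that were tested, 26 were called higher in IP after damage and none was called lower, where 4.65% of all tested genes were called higher and 4.38% lower. In input, 23 were called higher and none lower, against 4.76% and 3.51% of all tested genes. Both calls were made for 20 members, against 2.91% of all tested genes, and since input and IP come from the same pools these are not independent. The call was made in IP alone for Hist1h1b, Hist1h1c, Hist1h1d, Hist1h2ag, Hist1h2ak and Hist1h2bj, in input alone for Hist1h2bg, Hist1h2br and Hist3h2bb-ps, and in neither for Hist1h1e, Hist1h2al, Hist1h2ao, Hist1h4d, Hist2h2be, Hist2h3c2, Hist3h2a and Hist3h2ba. These shares have to be read with the filter in mind. A total of 19 tested members passed it through DTR groups alone, which favours a higher level there, and the counts are no support on their own. Of the 18 that passed in a control group, 10 were called higher in IP and 6 in input. Under a stricter call, a change of at least 2-fold with groups set apart by over 1.5-fold, 13 members were higher in IP and 13 in input, against 1.12% and 1.34% of all tested genes, and none lower, against 1.34% and 1.0%. Without any filter, the median fitted change of the 63 members with a read was 0.60 in IP and 0.66 in input on the log2 scale, where the median of all 32908 genes with a read was 0.00 in both.

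On the deposited values themselves, 38 of the 70 members had every DTR IP library above every control IP library, against 6.93% of the genes with a read, and 36 had this in input, against 7.89%. None had every DTR library below every control library in IP or in input, against 3.74% and 4.38% of the genes with a read. Of the members too low to be tested, 11 were separated in this way in IP and 12 in input. A total of 22 members had at most 3 reads in each of the 8 control libraries, and 15 of them had a read in some DTR library. The matching shares among all genes of such low level are not given here, so these counts of low members only describe them.

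**Figure D3:**
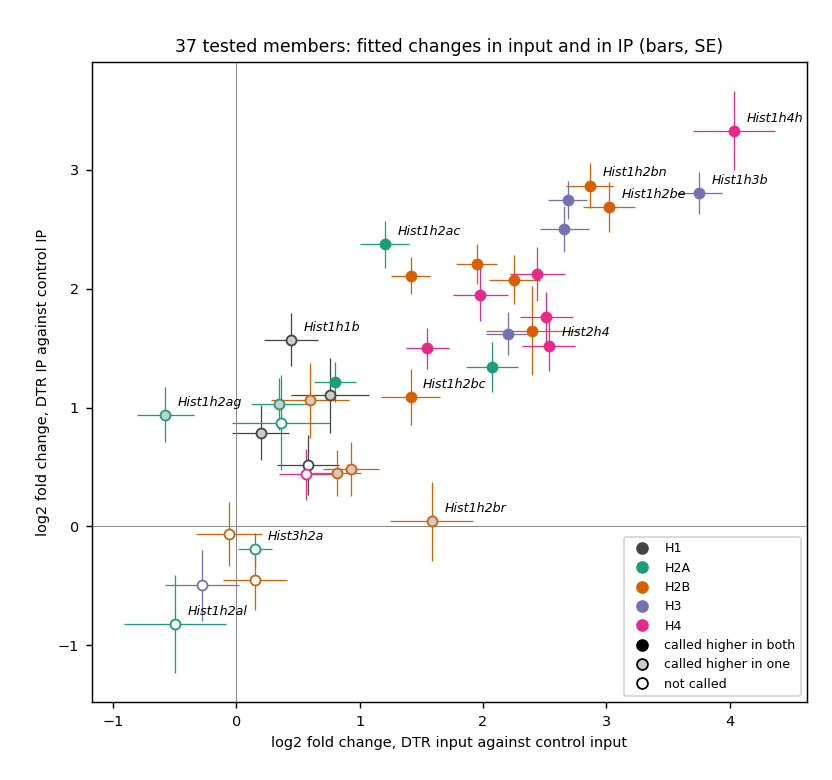
Fitted log2 fold change of the 37 tested members in DTR input against control input (x axis) and in DTR IP against control IP (y axis), coloured by family, with bars for the SE of each fit. Filled points were called higher in both (20 members), grey points in one, and open points in neither; most filled points lie between 1 and 3 on both axes, Hist1h4h is the farthest out and Hist1h2ag is the 1 called member left of 0 in input.

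H3 and H4 form the core tetramer of the nucleosome, and an H4 gene had the largest fitted change in limma in both fractions. Hist1h4h, an H4 gene at chr13:23531050-23531519 (plus strand, a single-exon gene model of 470 bases), was at 0.905, 0.507, 0.822 and 0.129 CPM in the control inputs and at 26.9, 21.8, 11.1 and 14.04 CPM in the DTR inputs. In IP it was at 0.209, 0.320, 0.647 and 0.981 CPM in control and at 15.6, 9.43, 11.4 and 7.004 CPM in DTR. The lowest DTR library thus stood above the highest control library in both fractions. Hist1h4h passed the filter through DTR groups alone, so its p-values are no support on their own. The fitted change was 4.03 ± 0.33 in input (log2, SE; limma adjusted p = 7.45e-08) and 3.33 ± 0.33 in IP (adjusted p = 9.01e-07). edgeR on reads, which shrinks low levels less, put members that were nearer to 0 in control first, namely Hist1h2bn in IP (7.43) and Hist1h3g in input (7.63), with Hist1h4h at 4.93 in input.

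Hist1h3b, an H3 gene at chr13:23752267-23752886 (plus strand), came close to being silent in control cochleae. It was at 0.0238, 0.0563, 0.0484 and 0.0517 CPM in the control inputs, which is 7 reads over the 4 libraries, and at 7.80, 8.85, 6.10 and 6.24 CPM in the DTR inputs. In IP, 3 control libraries had no read and the other held 0.0588 CPM (2 reads), against 3.92, 4.17, 2.52 and 2.56 CPM in DTR. Its level in DTR exceeded that in control by a depth-scaled read ratio of 162 in input (95% counting interval 78.3 to 404) and of 217 in IP (59.7 to 1800), where the exact intervals cover counting error only. The fitted changes, which the pseudocount shrinks, were 3.75 ± 0.18 in input (limma adjusted p = 5.16e-11) and 2.81 ± 0.18 in IP (adjusted p = 2.26e-09). Hist1h3b passed the filter through DTR groups alone, so these p-values are no support on their own. More than 50% of its 75-base windows (58.6%) are shared with transcripts of other genes.

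Hist1h3d and Hist1h3i, both H3 genes, were also separated in both fractions. Hist1h3d, whose annotated end is long, was at 0.179, 0.116, 0.206 and 0.131 CPM in control IP and at 3.89, 4.45, 2.75 and 2.99 CPM in DTR IP, a fitted change of 2.50 ± 0.20 (limma adjusted p = 3.61e-08). Hist1h3i, annotated as coding sequence only, was at 0, 0.0291, 0.0294 and 0.0327 CPM in control IP and at 3.57, 3.74, 2.82 and 2.56 CPM in DTR IP, a fitted change of 2.75 ± 0.16 (adjusted p = 5.32e-10). In input they changed by 2.66 ± 0.20 (adjusted p = 1.72e-08) and 2.69 ± 0.16 (adjusted p = 6.97e-10). Of the 5 tested H3 members, 4 were called higher in both fractions, against 2.91% of all tested genes, but these 4 passed the filter through DTR groups alone. The other, Hist2h3c2, was the 1 H3 member that passed it in control, at 0.582 to 1.73 CPM in control IP, against 0.625 to 1.79 CPM in DTR IP, and it was not called.

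Among the 7 tested H4 members, 6 were called higher in both fractions, and of the 3 that passed the filter in control 2 were. Hist1h4j, given next, passed it through DTR groups alone. Hist1h4j was at 0, 0, 0.235 and 0 CPM in control IP and at 2.67, 2.67, 1.29 and 1.87 CPM in DTR IP, a fitted change of 2.12 ± 0.23 (limma adjusted p = 1.94e-06). Hist2h4, the 1 called member of the cluster on chromosome 3, was at 0.538, 0.640, 1.03 and 0.948 CPM in control IP and at 2.67, 3.49, 3.71 and 4.47 CPM in DTR IP (1.52 ± 0.22; adjusted p = 5.66e-05). It shares no window with another gene. Hist1h4d was the tested H4 member that was not called: it was the highest H4 member in control, at 4.30 ± 1.11 CPM in IP (SD, n = 4), and stood at 6.497 ± 1.11 CPM in DTR IP with overlap (0.44 ± 0.22; adjusted p = 0.197). In input it did not overlap, at 4.17 to 4.84 CPM in control and 5.51 to 9.51 CPM in DTR (0.57 ± 0.22; limma adjusted p = 0.106), and there DESeq2 called it higher (adjusted p = 0.035) and edgeR did not (adjusted p = 0.0639).

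H2B and H2A pair as dimers on the tetramer, and here the members split. Among the 13 tested H2B members 8 were called higher in IP and 10 in input, and of the 4 that passed the filter in control 2 were in each. Hist1h2be, at chr13:23583670-23621124 on the minus strand, was at 0.807, 1.28, 1.32 and 1.01 CPM in control IP and at 14.5, 10.6, 10.6 and 8.25 CPM in DTR IP, a fitted change of 2.69 ± 0.21 (limma adjusted p = 3.36e-08). Its gene model overlaps that of Hist1h1e on the same strand, so how their reads were divided is uncertain. Hist1h1e itself was at 9.95 ± 2.41 CPM in control IP, against 15.4 ± 4.50 CPM in DTR IP and was not called.

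The most abundant H2B member, Hist1h2bc, was among those that rose. It was at 33.6, 22.1, 21.9 and 17.8 CPM in control input and at 85.7, 72.0, 66.9 and 39.8 CPM in DTR input, and no control library reached the lowest DTR library. It was at 20.5, 13.6, 17.4 and 10.2 CPM in control IP and at 39.1, 30.4, 41.7 and 26.4 CPM in DTR IP. The fitted changes were 1.41 ± 0.24 in input (limma adjusted p = 0.000358) and 1.09 ± 0.24 in IP (adjusted p = 0.00321). Without it, the summed level of the other members still stood at 1.92 times the control mean in input and 1.94 times in IP.

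Hist1h2bn, Hist1h2bl and Hist1h2bm were near 0 in control and passed the filter through DTR groups alone, so their p-values are no support on their own. Hist1h2bn had 2 reads over the 4 control IP libraries and was at 3.60, 3.31, 3.71 and 2.89 CPM in DTR IP (2.87 ± 0.19; limma adjusted p = 3.70e-09), a read ratio of 224 with a counting interval of 61.6 to 1854. Hist1h2bl had 1 read in control IP and was at 1.64, 2.10, 2.52 and 1.61 CPM in DTR IP (2.21 ± 0.17; adjusted p = 1.98e-08), a read ratio of 260 with an interval of 46.2 to 10302. Hist1h2bm had 4 reads in control IP and was at 2.31, 1.85, 1.95 and 1.64 CPM in DTR IP (2.11 ± 0.16; adjusted p = 1.59e-08). Hist1h2bn and Hist1h2bl share 72.3% and 73.3% of their windows with other genes, and Hist1h2bm has no entry in the annotation used here, so it is given without a position.

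The other abundant H2B members showed no such rise. Hist2h2be, at chr3:96221119-96223738 and with no shared window, was at 18.9, 13.04, 16.8 and 12.5 CPM in control IP and at 25.1, 15.8, 13.8 and 8.75 CPM in DTR IP, with the groups interleaved (-0.07 ± 0.27; limma adjusted p = 0.904). Hist3h2ba was at 5.82 to 12.9 CPM in control IP, against 4.61 to 11.7 CPM in DTR IP and was not called either.

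**Figure D4:**
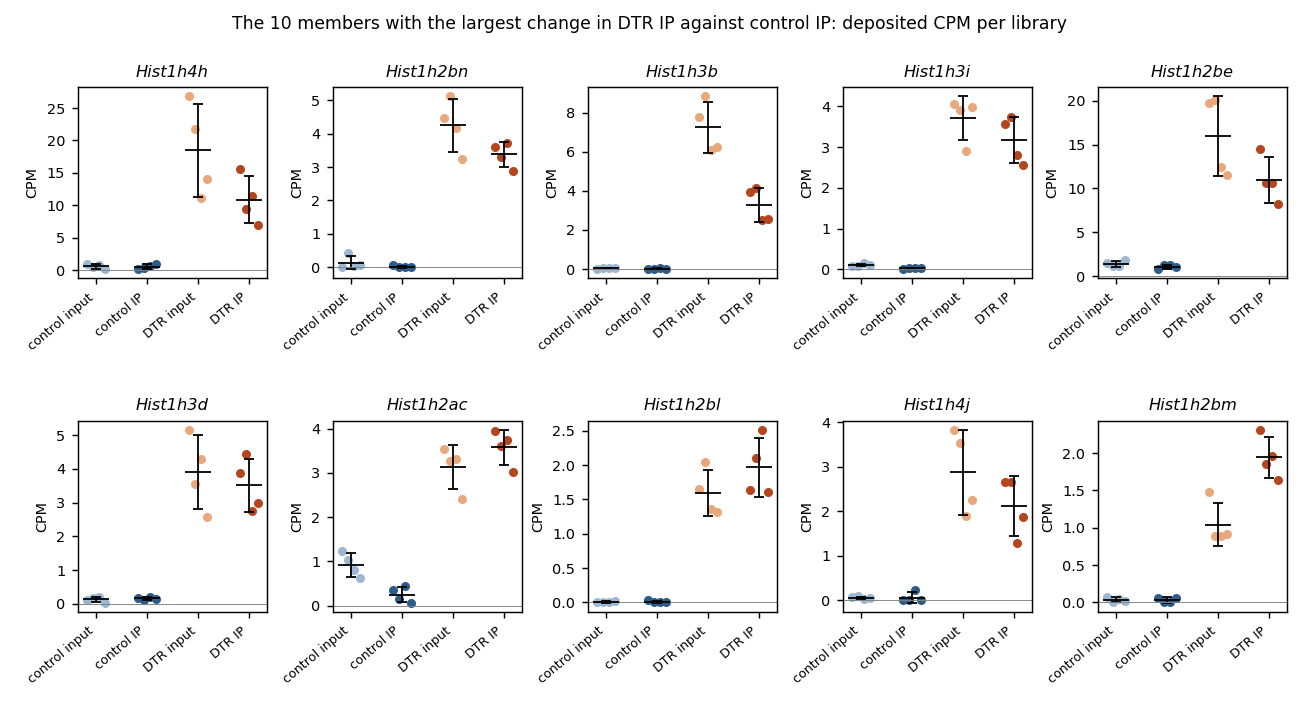
CPM per library of the 10 members with the largest fitted change in DTR IP against control IP (1 panel a gene, linear y axes that differ between panels), with 1 point per library, a black line for the mean and bars for the SD of 4 libraries. In each panel the DTR libraries lie above all control libraries of the same fraction; control values lie near 0 except for Hist1h2be and, in input, Hist1h2ac.

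Of the 8 tested H2A members, 5 were called higher in IP and 3 in input, and of the 7 that passed the filter in control 4 and 2 were. In input the largest fitted change was that of Hist1h2ab (2.07 ± 0.21, limma adjusted p = 1.09e-06), which passed the filter through DTR input alone. edgeR also put Hist1h2ab first in IP (3.90, against 3.72 for Hist1h2ac). By limma the largest in IP was that of Hist1h2ac, at chr13:23681467-23683948 on the minus strand, which is the partner of Hist1h2bc across a shared promoter. It was at 0.359, 0.146, 0.441 and 0.0654 CPM in control IP and at 3.95, 3.60, 3.74 and 3.03 CPM in DTR IP (2.37 ± 0.20; limma adjusted p = 9.83e-08). In input it was at 1.24, 1.04, 0.798 and 0.621 CPM in control and at 3.55, 3.27, 3.32 and 2.41 CPM in DTR (1.20 ± 0.20; adjusted p = 0.000351). Control IP was thus the lowest of its 4 groups, below every control input library, while DTR IP and DTR input overlapped.

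Hist3h2a, the most abundant H2A member, did not pass the test in either fraction. It was at 26.2, 26.1, 21.9 and 16.2 CPM in control IP and at 20.02, 20.5, 21.6 and 17.9 CPM in DTR IP (-0.19 ± 0.14; limma adjusted p = 0.401). In input its control range of 18.4 to 27.7 CPM held every DTR library, which lay between 22.3 and 26.1 CPM (0.15 ± 0.14; adjusted p = 0.592). Its gene model at chr11:58954685-58956830 overlaps Trim17, a gene for a tripartite-motif ubiquitin ligase, which rose from 0.868 ± 0.404 to 134 ± 26.8 CPM in input and from 1.66 ± 0.171 to 107 ± 35.4 CPM in IP (fitted changes of 6.57 and 5.48). Hist1h2ao, for which 93.1% of windows are shared, scattered from 1.19 to 7.24 CPM within control IP and from 3.27 to 13.4 CPM within control input and was not called. The pseudogene Hist1h2al, at 2.72 to 8.83 CPM in control IP, against 1.32 to 4.97 CPM in DTR IP, was not called either.

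H1 binds the linker DNA between nucleosomes, and of its 6 members 4 were tested. None of the 4 was called higher in input by limma, edgeR or DESeq2, although 2 of them, Hist1h1d and Hist1h1e, were under 0.05 in limma before adjustment, and 3 were called higher in IP, 2 of them among the 3 that passed the filter in control. Hist1h1b was at 0.867, 0.495, 0.588 and 0.523 CPM in control IP and at 4.92, 2.53, 2.32 and 3.26 CPM in DTR IP (1.57 ± 0.22; limma adjusted p = 5.63e-05). In input its ranges overlapped, at 1.19 to 2.19 CPM in control and 1.95 to 3.99 CPM in DTR (0.44 ± 0.22; adjusted p = 0.243). Hist1h1c, the H1 member of highest level, was at 13.4, 10.8, 11.1 and 5.72 CPM in control IP and at 23.1, 16.8, 19.4 and 15.6 CPM in DTR IP, a fitted change of 0.79 ± 0.23 (adjusted p = 0.0244) that was lost when control IP replicate 4, DTR IP replicate 1 or DTR IP replicate 3 was left out.

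Comparing IP with input of the same condition asks which messages were on the tagged ribosomes more or less than in the whole tissue. Slc1a3, the gene for GLAST, was at 281 ± 14.3 CPM in control input and 236 ± 21.9 CPM in control IP. In DTR it was at 271 ± 19.8 CPM in input and 215 ± 18.4 CPM in IP (SD, n = 4 each), and it was not called in either condition. Of 4 supporting cell markers, 2 were called higher in IP than in input in control and 1 in DTR. In control cochleae 1 of the 37 tested members was called higher in IP and 6 lower, where 11.8% and 12.3% of all tested genes were called higher and lower. The 6 lower members were H1 and H2A genes: Hist1h1b, Hist1h1c, Hist1h2ac, Hist1h2ae, Hist1h2ag and Hist1h2ak. Of these, Hist1h2ag passed the filter through control input alone, so its call is no support on its own. The 1 higher member was Hist2h4, at 0.453, 0.422, 0.266 and 0.155 CPM in control input (0.67 ± 0.22; limma adjusted p = 0.0185), a call that was lost without control input replicate 4, control IP replicate 3 or control IP replicate 4. Hist1h2ak was at 1.43, 1.38, 1.96 and 1.06 CPM in control input and at 0.807, 0.262, 0.441 and 0.425 CPM in control IP (-0.97 ± 0.22; adjusted p = 0.00192). In DTR cochleae 1 member was called higher in IP and 3 lower, against 11.5% and 10.3% of all tested genes. The higher member was Hist1h2bm (0.68 ± 0.16; adjusted p = 0.00189), and the lower members were Hist1h3b, Hist3h2ba and Hist1h2br. Of these, Hist1h2br passed the filter through DTR input alone, which favours a high level there, so its call is no support on its own. The total of 4 rose to 9 without DTR IP replicate 1 and to 7 without DTR input replicate 3 or 4, and neither edgeR nor DESeq2 called Hist1h2bm (adjusted p = 0.0633 and 0.0642) or Hist1h2br (adjusted p = 0.0649 and 0.216). Hist1h3b was at 7.25 ± 1.32 CPM in DTR input and 3.29 ± 0.873 CPM in DTR IP (SD, n = 4 each; -1.04 ± 0.18; adjusted p = 0.000166). By their summed level, the members stood in IP at 0.744 times the input mean in control and at 0.713 times in DTR. The groups overlapped in both, but within the pools, which gave an input and an IP each, the IP was below its own input in 4 of 4 control pools (ratios of 0.666 to 0.788) and in 4 of 4 DTR pools (0.637 to 0.786). Under the stricter call no member was called in control, where 4.12% and 3.56% of tested genes were called higher and lower. None was called in DTR either, against 3.67% and 2.11%. At an unadjusted p under 0.05 limma had 10 and 13 members. These counts lack the share of all tested genes under that limit and are not read as a result.

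Whether the response to damage differed between IP and input was tested as an interaction. By limma no member passed, where 0.0% of tested genes passed upwards and 0.0118% downwards. An unadjusted limma p under 0.05 was reached by 11 of the 37 members. The share of all tested genes under this limit is not given here, so that count is not read as a result. The smallest adjusted p was that of Hist1h2ag (1.51 ± 0.33; adjusted p = 0.177). Hist1h2ag passed the filter through control input alone, which favours a high level there. The p-values given for its interaction are thus no support on their own. This H2A gene was at 1.33, 1.10, 0.846 and 0.543 CPM in control input, and its control IP libraries lay far lower, at 0.209, 0, 0 and 0.0654 CPM. After damage it was at 0.591, 0.488, 0.511 and 0.609 CPM in input and at 1.35, 0.819, 0.464 and 0.329 CPM in IP, where the fractions overlapped. The IP of DTR cochleae held more of it than the control IP (0.94 ± 0.23; limma adjusted p = 0.00835) and it was not called in input (-0.57 ± 0.23; adjusted p = 0.127). Blocking on the replicate number, the difference passed (limma adjusted p = 0.0473), and blocking on the pool it did not (adjusted p = 0.0631). edgeR passed none (adjusted p = 0.149 for Hist1h2ag), and DESeq2 passed Hist1h2ag (adjusted p = 0.00556) and Hist1h2ac (adjusted p = 0.0244). Of the windows of Hist1h2ag 77.6% are shared with other genes.

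The promoters of the members hold motifs in common. Of the 61 members matched to a promoter of RefSeq on GRCm38.p6 (250 bases before to 50 after the start), 52 held CCAAT on either strand (85.2%), against 37.9% of all 27025 promoters. TATAAA was held by 35 (57.4%), against 14.2%, and the octamer ATTTGCAT by 13 (21.3%), against 1.75%, again on either strand. CCAAT was present in each of the matched H1, H2A, H2B and H3 promoters but in 3 of the 12 H4 promoters, and the octamer in 7 of 17 H2A and 6 of 16 H2B promoters and in no other family. Where an H2A and an H2B gene face away from each other across a short promoter, their windows overlap. The same motif can then count for both genes, so these are not counts of independent promoters. Among the 26 matched members called higher in DTR in IP or in input, 22 held CCAAT, 15 TATAAA and 5 the octamer, and among the 35 other matched members 30, 20 and 8 did. The lines below give the 250 bases before the RefSeq start of Hist1h3b (chr13:23752095-23752344, plus strand), of Hist1h2ac (chr13:23683960-23684209, minus strand, shared with Hist1h2bc on the other strand) and of Hist1h4h (chr13:23530794-23531043, plus strand), with these 3 motifs in capitals on whichever strand they were read. The RefSeq start of Hist1h3b lies 78 bases inside the M21 gene model given above, so that the end of this window is part of that model, while those of Hist1h2ac and Hist1h4h lie 11 and 6 bases before theirs. These promoters are shown because their members had the largest limma change in IP among H3, H2A and H4 genes while their motif content differs.
Hist1h3b: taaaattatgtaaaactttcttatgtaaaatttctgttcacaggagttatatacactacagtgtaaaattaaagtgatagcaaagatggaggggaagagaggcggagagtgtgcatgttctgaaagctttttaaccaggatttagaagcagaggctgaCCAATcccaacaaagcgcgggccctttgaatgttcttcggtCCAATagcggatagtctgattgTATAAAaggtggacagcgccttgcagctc
Hist1h2ac: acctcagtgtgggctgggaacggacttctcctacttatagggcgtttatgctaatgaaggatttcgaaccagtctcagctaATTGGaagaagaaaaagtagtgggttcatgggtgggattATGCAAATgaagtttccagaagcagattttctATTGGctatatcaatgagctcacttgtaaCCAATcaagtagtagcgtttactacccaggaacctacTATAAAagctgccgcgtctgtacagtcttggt
Hist1h4h: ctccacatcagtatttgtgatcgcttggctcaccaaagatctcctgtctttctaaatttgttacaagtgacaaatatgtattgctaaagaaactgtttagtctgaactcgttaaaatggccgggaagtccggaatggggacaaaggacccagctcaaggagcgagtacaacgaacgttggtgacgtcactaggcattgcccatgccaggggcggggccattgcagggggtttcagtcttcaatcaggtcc
The promoter of Hist1h3b holds 2 CCAAT and 1 TATAAA, that of Hist1h2ac 3 CCAAT, 1 TATAAA and 1 octamer, and that of Hist1h4h none of the 3. These are matches of letters and not measured binding sites.

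An H2A and an H2B gene that face away from each other across a short shared promoter make up 13 pairs among the members, and in 6 of them both partners were tested. Partners did not always share a call. Hist1h2ac and Hist1h2bc, whose annotated starts are 251 bases apart, were both called higher in both fractions. Hist1h2ak and Hist1h2bn were both called higher in IP, with fitted changes of 1.03 and 2.87, but only Hist1h2bn in input (0.34 and 2.86). For Hist1h2bl and its partner Hist1h2ai the changes in IP were 2.21 and 0.18, the latter from a fit without the filter since Hist1h2ai was too low to be tested, and 89.3% of the windows of Hist1h2ai are shared with other genes. Hist2h2be was called in neither fraction, and its partner Hist2h2ac was too low to be tested. The difference between partners was not tested.

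By the annotated end of the transcript, both kinds of stem-loop member changed. The 22 members with a long annotated end made up 56.7% of the summed CPM in control input and 46.1% in DTR input, and the 22 with a short end 7.99% and 15.6%. In IP the shares were 59.0% and 50.5% for long ends and 4.93% and 13.97% for short ends. Per length, the median member with a long end stood at 0.305 CPM per kb in control IP and 2.34 CPM per kb in DTR IP, and the median member with a short end at 0.0715 and 0.788 CPM per kb. Of the tested members with long ends 10 of 16 were called higher in IP, and of those with short ends 8 of 9, against 4.65% of all tested genes. Among the tested members, 11 with long and 2 with short ends had passed the filter in a control group. Of those, 6 and 1 were called. Lengths come from the annotation and not from the reads, so which end the captured transcripts had was not tested.

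**Figure D5:**
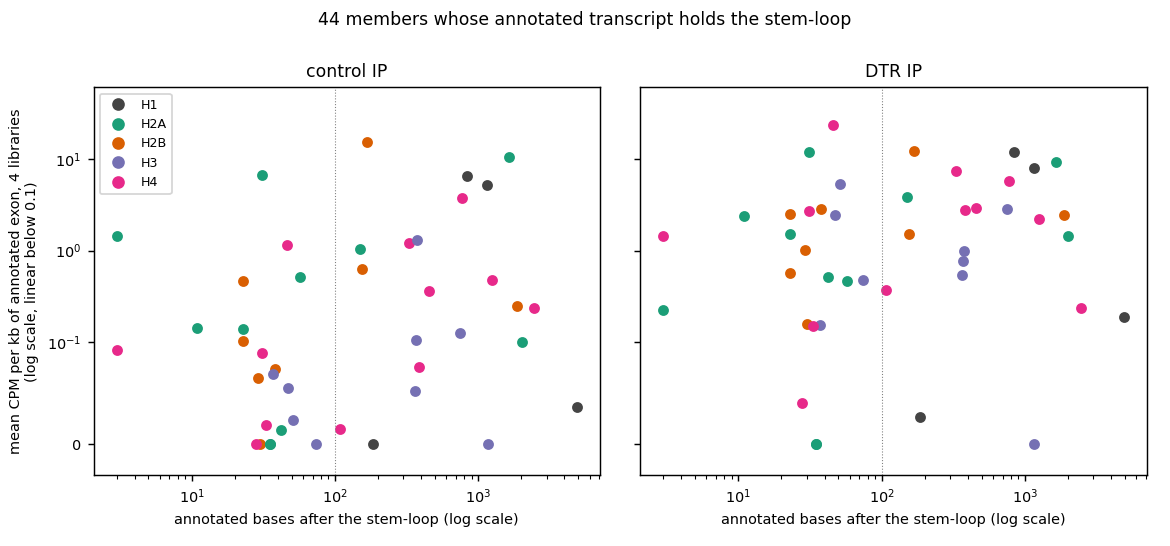
Annotated bases after the stem-loop (x axis, log scale; dotted line at 100 bases) against mean CPM per kb of annotated exon over 4 libraries (y axis, log scale that is linear below 0.1) for the 44 members with a stem-loop, in control IP (left) and DTR IP (right), coloured by family. Many members with short ends lie at or near 0 in control IP and above 0.1 in DTR IP, and the median of the members with long ends is also higher in DTR IP (2.34 against 0.305 CPM per kb).

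Of the genes that act with the cluster genes, none changed by as much as the leading members. Among 20 genes of S phase and DNA replication, 6 were called higher in DTR IP (Cdc6, Cdt1, Mcm3, Mcm6, Mki67 and Rrm2), 3 in DTR input (Ccna2, Mki67 and Rrm2) and none lower in either. Rrm2, a subunit of the enzyme that makes deoxyribonucleotides, went from 8.47 ± 1.37 to 25.4 ± 7.16 CPM in IP (1.41 ± 0.16; limma adjusted p = 5.10e-06), and Mki67, a marker of cycling cells, from 12.1 ± 3.66 to 32.1 ± 4.96 CPM (1.32 ± 0.18; adjusted p = 2.77e-05). These were the largest fitted changes of that list. The summed CPM of the list stood at 1.38 times the control mean in IP and 1.25 times in input, against 1.98 and 2.06 times for the histone cluster genes.

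The factors that make and process histone messages were mostly not called. Among 17 tested genes of histone transcription and 3' processing, Casp8ap2, which encodes a protein needed for expression of histone genes, was called higher in IP (0.59 ± 0.15; limma adjusted p = 0.011) and none was called in input. Slbp was at 81.9 ± 4.37 CPM in control IP, against 91.2 ± 6.80 CPM in DTR IP (SD, n = 4 each; 0.14 ± 0.09; adjusted p = 0.313). Of 18 histone chaperones, Asf1b, which hands H3 and H4 to the assembly machinery, was called higher in IP (0.85 ± 0.19; adjusted p = 0.00349) and in input (0.72 ± 0.19; adjusted p = 0.0141). Of 11 genes for histone variants outside the clusters, only Cenpa, the H3 variant of centromeres, was called higher in IP (0.97 ± 0.13; adjusted p = 3.03e-05) and in input (0.79 ± 0.13; adjusted p = 0.000321). None of the genes in these 3 lists was called lower in DTR.

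Some markers of cell types also differed between DTR and control, in either direction. In IP the summed CPM of 4 supporting cell markers ranged from 697 to 816 in control and from 328 to 477 in DTR, with 3 of 4 called lower. In input it ranged from 548 to 586 in control and from 348 to 468 in DTR, with 2 of 4 called lower. The sum of 4 mesenchyme markers ranged from 1555 to 2104 in control IP and from 2835 to 3242 in DTR IP, with 2 of 4 called higher. In input it overlapped, at 2608 to 2818 in control and 2666 to 3555 in DTR, and none of these markers was called. The sum of 3 macrophage markers ranged from 7.61 to 14.1 in control IP and from 16.9 to 25.3 in DTR IP, with 1 of 3 called higher, and from 54.8 to 60.2 in control input and 68.6 to 113 in DTR input, with 2 of 3. The sum of 2 endothelial markers ranged from 7.58 to 12.9 in control IP and 13.5 to 16.7 in DTR IP, with 1 of 2 called higher. In input it overlapped, at 27.4 to 36.2 in control and 29.1 to 40.8 in DTR, and none of these markers was called. The sum of 3 glial markers ranged from 1456 to 2860 in control input and 616 to 989 in DTR input, with 2 of 3 called lower. In IP it ranged from 329 to 679 in control and from 203 to 331 in DTR, and none of these markers was called. The sum of 3 neuronal markers ranged from 661 to 848 in control IP and 371 to 538 in DTR IP, with 1 of 3 called lower. In input it ranged from 624 to 821 in control and from 397 to 586 in DTR, with 1 of 3 called lower. Of the 4 hair cell markers 1, Atoh1, was called lower in both fractions, and of the erythroid markers, 3 of which were tested, and Slc1a3, the gene for GLAST, none was called in either fraction. No marker of these lists was at 0 in a group. The part of these cell types in the levels of the histone cluster genes was not tested.

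Within the clusters lie other genes as well. Of the 143 non-histone genes with values that lie inside the spans, 12 were tested, of which 4 were called higher and 2 lower in IP, and 5 higher and 1 lower in input. Among all tested genes 4.65% and 4.38% were called higher and lower in IP, and 4.76% and 3.51% in input. The largest changes were those of a pair of non-coding genes. Gm11274, a lincRNA at chr13:21769125-21770476 on the plus strand, 9407 bases from Hist1h1b, went from 0.0971 ± 0.0782 to 16.4 ± 3.88 CPM in IP and from 0.208 ± 0.113 to 22.9 ± 7.19 CPM in input. Gm20627, a processed transcript at chr3:96254619-96256277 on the minus strand, 5405 bases from Hist2h4, went from 0.318 ± 0.109 to 6.69 ± 1.19 CPM in IP and from 0.157 ± 0.0386 to 10.95 ± 2.59 CPM in input. Their fitted changes in input, 4.96 ± 0.23 (limma adjusted p = 3.75e-11) and 4.01 ± 0.20 (adjusted p = 7.56e-11), compare with 4.03 for Hist1h4h, the largest of a member by limma. Both genes had mean control levels under 0.5 CPM in each fraction and so passed the filter through DTR groups alone. These p-values are thus no support on their own.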

How the data were processed

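The deposited values are CPM per gene (reads scaled to a common library total) for 16 libraries (SMART-Seq v4, paired 75-base reads, GRCm38). Per the study's methods the authors aligned with HISAT2 and counted with HTSeq; the processing notes name TopHat, and the annotation release and strand setting are not given in the sources used here. Of 50316 genes listed, 2587 hold no value. Of the CPM values above 0, 99.996% in control input replicate 3 and 100% in each other library were whole multiples of 1 read, which gave the reads per gene. CPM values were quantile-normalized, and limma 3.58.1 (R 4.3.3) was fitted with trend to log2(value + 0.5) over all 4 groups, with a contrast per comparison and an interaction. edgeR 4.0.16 and DESeq2 1.42.0 on the recovered reads, other filters and pseudocounts, a stricter call, blocks and leaving out each library were alternatives. The fit was tested on simulated data.

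The members and gene lists were chosen with earlier results of these data known. Members named with full values were the 2 highest per family, the 10 largest changes called in IP, and the leaders of the IP against input and interaction fits; others are named for context. The replicate numbers pair samples: same-numbered libraries deviated together, with a lowest correlation of 0.288, and for IP and input the pairing comes from the shared homogenate. The labels do not say that the replicates are separate litters, so p-values measure the spread between these pools. Positions, stem-loops and overlaps come from GENCODE M21 and promoters from RefSeq; 68 members had an M21 entry. The pseudogene Hist1h2al was left out of the span of the Hist1 cluster. The 4th replicate carries the number 6 in the file columns.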

Additional observations from a re-analysis of the deposited data

Results flagged for a closer look

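Among 99 groups of 4 libraries, formed from the named members and the summed levels, 7 held a library that stood apart from the other 3 by more than Dixon's 95% limit, where chance gives about 1 in 20 groups. Hist1h2ao was at 7.24 CPM in control IP replicate 1, with the others at 1.19 to 2.17. Hist2h2be was at 22.7 CPM in control input replicate 1, with the others at 14.8 to 16.03. Hist1h2bn was at 0.422 CPM in control input replicate 2, with the others at 0 to 0.0517. Hist1h3i was at 2.91 CPM in DTR input replicate 3, with the others at 3.91 to 4.05. Hist1h4j was at 0.235 CPM in control IP replicate 3, with the others at 0. Hist1h2bm was at 1.48 CPM in DTR input replicate 1, with the others at 0.885 to 0.914. The summed level of the H3 members was 2.34 CPM in control input replicate 1, with the others at 1.57 to 1.66.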

How the results depend on the processing

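None of the 36 called values of named members changed sign under an alternative. Of 69 values of named members that were not called, 20 changed sign under some alternative, in none of which they were called; the difference between fractions for Hist1h3b was -0.95 in limma, 0.17 in edgeR and 0.38 in DESeq2. The number of members called was 26 in DTR IP against control IP and 23 in DTR input against control input. It was 15 and 13 with a filter of 2 CPM, under which fewer members were tested, and 13 and 13 under the stricter call. For control IP against input the 7 calls became 0 under the stricter call and 3 with members that overlap another gene left out. For DTR IP against input the 4 calls became 2 with DESeq2, 2 with edgeR, 2 with the 2 CPM filter, 0 under the stricter call and 9 with the adjusted p alone. For the interaction 2 members passed with DESeq2 and 1 under the replicate block; this block left 26, 23, 7 and 4 calls in the other comparisons, and blocking on the pool gave 7 and 4 calls for IP against input and 0 for the interaction. The cause of these differences was not tested. Leaving out single libraries gave 23 to 28 calls in DTR IP against control IP, 23 to 25 in DTR input against control input, 6 to 9 in control IP against input, 4 to 9 in DTR IP against input and 0 to 0 for the interaction. It moved the ratios of the summed levels to 1.85 to 2.12 in IP, 1.90 to 2.23 in input, 0.694 to 0.785 for control IP against input and 0.660 to 0.776 for DTR IP against input.

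Of 969 refitted values of named members, 956 kept their direction and their side of the threshold and 13 lost the call: 4 for Hist1h1c and 1 for Hist1h2ag in DTR IP against control IP, 3 for Hist1h2bm in DTR IP against DTR input and 5 for Hist2h4 in control IP against control input. Depth limits the members that are near 0 in control, where 3 reads are 0.0715 to 0.107 CPM and a ratio rests on a few reads. Shared sequence limits the members that resemble a copy: 12 of the 37 tested members share over 50% of their windows.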

Other observations

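Some H2A and H2B members jumped in single control libraries; they were picked after their values were seen. Of these 5 genes 4 were too low to be tested, and Hist1h2br was tested and called higher in DTR input against control input and lower in DTR IP against DTR input. Hist1h2br passed the filter through DTR input alone, so neither call is support on its own. Hist1h2ap was at 3.10 CPM in control input replicate 4 and at 0.0242 to 0.119 CPM in the other control inputs, and at 2.56 CPM in control IP replicate 2 and 0 to 0.163 CPM in the other control IPs. Hist1h2ad was at 1.86 and 1.71 CPM in control input replicates 2 and 4 and at 0.0238 and 0.0484 CPM in replicates 1 and 3. Hist1h2af was at 1.60 CPM in control input replicate 1 and at 0, 0.411 and 0 CPM in the others. Hist1h2bf was at 1.49 CPM in control input replicate 2 and at 0.0238, 0 and 0.207 CPM in the others. Hist1h2br was at 1.13 CPM in control IP replicate 2 and at 0 to 0.0654 CPM in the other control IPs. In the DTR libraries these 5 genes were between 0 and 2.07 CPM. From 56.6% to 92.6% of the 75-base windows of these genes are shared with other genes, and whether the jumps come from reads placed on a copy was not tested. A jump was also seen in the H1 gene Hist1h1d, of whose windows 1.47% are shared. It was at 1.52 CPM in control input replicate 2 and at 0.193 to 0.362 CPM in the other control inputs.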
